A study of Sus scrofa with 12 samples.

Results

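The juvenile comparison set 3 libraries of ischemic jejunal mucosa against 3 libraries of control mucosa, 6 of the 12 libraries of the series, and covered the 14191 of 23909 genes in the count table that had more than 1 CPM (counts scaled to a common library size) in at least 2 of the 12 libraries. The animals were 6-wk-old Yorkshire cross pigs. Ischemia was made by surgery in anesthetized pigs: the vessels feeding a loop of distal jejunum were tied for 30 min, and control mucosa came from nearby loops with intact vessels. Mucosa was scraped off, snap-frozen and made into stranded total RNA libraries for single-end sequencing. The other 6 libraries came from ischemic and control mucosa of 2-wk-old neonates and entered the filter on low counts, the comparison of ages and 1 alternative fit. Juvenile replicates carried the letters A, B and C and neonatal ones A, C and D. Per the study the 3 libraries of a group came from 3 pigs. Whether a control and an ischemic library of the same letter came from 1 pig is not given in the sources used here. A scraping is a mixed tissue, so fewer cells of a type and less RNA per cell could not be told apart.

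Reads on genes numbered 12570140, 17694393 and 1490898 in controls A, B and C, and 6596275, 13679407 and 5849108 in ischemic A, B and C. Control C stood apart. Only 7.50% of its counted reads fell on genes, against 61.2% to 63.2% in the other controls and 34.3% to 47.9% in the ischemic libraries, and 46.5% of its reads aligned at more than 1 place. A single gene, HEPACAM, took 5.2% of its counts on genes. One count in control C was worth 0.767 CPM after scaling, so genes of a few CPM rested there on a handful of counts, and results that control C decided are given with and without it. Reads on no annotated gene also moved with the groups, at 26.7% and 28.4% in controls A and B, 45.96% in control C, and 42.3% to 50.6% in the ischemic libraries, and mitochondrial mRNA took 1.24% to 2.58% of the counts in controls and 2.46% to 4.87% in ischemic libraries. The part of these shares in the differences below was not tested. Levels below are CPM scaled by TMM factors (edgeR's trimmed mean of M values), given in the order A, B, C. Differences are edgeR's log2 fold changes of ischemic against control with approximate standard errors (SE). Each SE was derived from the test, as the size of the log2 fold change over the square root of edgeR's quasi-likelihood F statistic.

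The jejunal mucosa is a single sheet of epithelium over a lamina propria of fibroblasts, smooth muscle strands, capillaries, lymphatic lacteals, nerves, glia and immune cells. Absorptive enterocytes carry a brush border of microvilli with digestive enzymes and transporters, and the tips of the villi are the region most exposed to loss of blood flow. Injured epithelium is known to respond early with transcription of immediate early genes and prostanoid synthesis, and the wound is covered when neighboring enterocytes flatten and crawl over the bared basement membrane. Markers of jejunal epithelium were abundant in every library. Villin (VIL1), the actin bundler of microvilli, stood at 2383, 1671 and 1801 CPM in controls and at 697, 1286 and 959 CPM in ischemic libraries, and the disaccharidase SI lay between 4033 and 10900 CPM in all 6 libraries.

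No gene of 14191 (0.0%) passed a Benjamini-Hochberg adjusted p of 0.05 in the quasi-likelihood test of edgeR, where the lowest adjusted p was 0.0642, while 150 passed with a block for the replicate letter. At an unadjusted p under 0.05 in edgeR, 1456 genes were higher in ischemic mucosa (10.3% of genes tested) and 1178 were lower (8.3%). DESeq2, the tool of the study's methods, called 559 genes at an adjusted p under 0.05, with 318 higher (2.24%) and 241 lower (1.7%). All 3 ischemic libraries lay above all 3 controls for 1952 genes (13.8%) and below them for 1605 (11.3%). Of the 559 genes that DESeq2 called, 557 were at an unadjusted p under 0.05 in edgeR with the same sign and 533 had groups that did not overlap. These shares are the background against which the lists below are read. Without scaling factors the median of all genes moved from -0.01 to 0.23, and the split at an unadjusted p under 0.05 moved from 1456 higher and 1178 lower (55.3% higher) to 2541 higher and 382 lower (86.9% higher), so directions below are relative to the bulk of genes.

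How many genes DESeq2 called depended on the libraries. It called 70 without ischemic A, 112 without ischemic C, 360 without control A, 494 without control B, 902 without ischemic B and 995 without control C. At an unadjusted p under 0.05 in edgeR, 1261 genes were counted without ischemic A and 1591 without ischemic C. Among the 318 higher genes, ischemic B held the lowest ischemic level for 233, and among the 241 lower genes it held the highest ischemic level for 144, so ischemic B lay nearest to the controls for most of them. Of the 559 genes, 517 (92.5%) were also called without control C and 69 (12.3%) without ischemic A, and 56 (10.0%) were called with each of the 6 libraries left out in turn. Among these 56 were FOSB, EGR1, NRG1, POSTN, COL4A5, LAMA4, LYVE1, TNS2, CHST1, MMP3 and HBB on the higher side, and PCK1, ANGPTL4, SRXN1, PRAP1, PMP22, SGK1, REG3G, ESPN, SLC1A1, SLC3A1, SLC39A4, SDR16C5, USP2 and FBXO48 on the lower side.

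**Figure D1:**
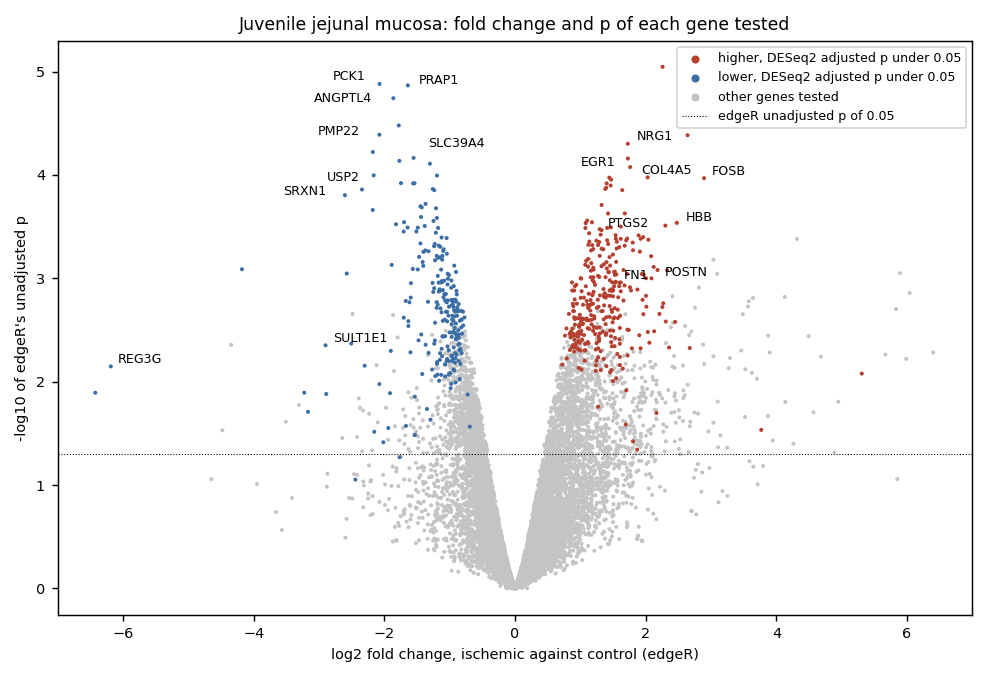
Each point is 1 of the 14191 genes tested. The x axis is the log2 fold change of ischemic against control mucosa and the y axis is -log10 of edgeR's unadjusted p; red and blue points are the 318 higher and 241 lower genes with a DESeq2 adjusted p under 0.05, the dotted line marks an unadjusted p of 0.05, and 1 gene beyond 7 on the x axis (HEPACAM) is outside the frame. PCK1, ANGPTL4 and PRAP1 stand at the top on the lower side, and FOSB, EGR1 and NRG1 are near the top on the higher side.

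Immediate early genes, which cells transcribe within minutes of a stimulus without new protein, went both ways. FOSB, a subunit of the AP-1 transcription factor (chr6:51836780-51844531, plus strand, in Sscrofa11.1), stood at 1.498, 2.72 and 1.53 CPM in controls and at 13.1, 25.4 and 7.45 CPM in ischemic libraries. Every ischemic library lay above every control, and ischemic B was highest. The log2 difference was 2.89 ± 0.49 (SE, n = 3 per group), with an adjusted p of 2.60e-05 in DESeq2 and 0.0642 in edgeR. EGR1, a zinc-finger transcription factor of the same early wave (chr2:140440829-140445302), stood at 18.6, 23.2 and 20.7 CPM in controls and at 51.5, 97.8 and 57.5 CPM in ischemic libraries. Its groups did not overlap either, and its log2 difference was 1.73 ± 0.28 (adjusted p 4.44e-05 in DESeq2, 0.0642 in edgeR). FOS, the partner of JUN proteins in AP-1, stood at 67.0, 23.7 and 85.2 CPM against 138, 183 and 129 CPM, a log2 difference of 1.40 ± 0.41 (adjusted p 0.0145 in DESeq2, 0.136 in edgeR).

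Other members of the same list were lower. SGK1, a serum- and glucocorticoid-induced kinase that acts on epithelial sodium transport, stood at 729, 692 and 363 CPM in controls and at 217, 206 and 213 CPM in ischemic libraries. The ischemic values lay close together and all below the lowest control, control C, and the log2 difference was -1.49 ± 0.29 (adjusted p 0.000214 in DESeq2, 0.0742 in edgeR). PPP1R15A (GADD34), which directs the phosphatase that restarts translation after stress, stood at 89.4, 82.6 and 144 CPM in controls against 42.6, 51.7 and 43.4 CPM (log2 difference -1.18 ± 0.25, DESeq2 adjusted p 0.00455). DUSP5, a nuclear phosphatase of ERK, had a log2 difference of -1.12 (DESeq2 adjusted p 0.0176), and KLF4, a transcription factor of mature enterocytes, -0.89 (DESeq2 adjusted p 0.0626). ATF3, a stress-induced transcription factor, lay between 19.0 and 32.4 CPM in all 6 libraries with a log2 difference of -0.20 ± 0.26, which turned positive without scaling factors and without control B. Of the 45 members tested, 6 were higher and 10 lower at an unadjusted p under 0.05 in edgeR, and the median was -0.15, which turned to 0.09 without scaling factors and 0.10 without control B. Leaving out ischemic C lowered the count of lower members to 6, and without scaling factors 7 were higher and 7 lower.

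The 300-base windows from 250 bases before to 50 bases after the annotated start of transcription (RefSeq annotation of Sscrofa11.1) were read for genes with some of the clearest differences. Both strands were searched for TGACGTCA (the cAMP response element), TGAGTCA (the AP-1 site), ACGTG (the core of the hypoxia response element), TATAAA, GAANNTTC (the heat shock element core) and the CArG box, and matches could overlap. Of the 21 windows of the largest differences, 1 held TGACGTCA, 2 TGAGTCA, 2 ACGTG, 4 TATAAA, 1 GAANNTTC and 0 the CArG box. The windows shown were picked for their matches: PCK1 and PPP1R15A, both lower in ischemic mucosa, hold TGACGTCA, and SRXN1 holds TGAGTCA. The first window is chr17:57930257-57930556, the second chr6:54171788-54172087 and the third chr17:34582127-34582426, all on the plus strand and printed 5′ to 3′ with matches in capitals.
PCK1: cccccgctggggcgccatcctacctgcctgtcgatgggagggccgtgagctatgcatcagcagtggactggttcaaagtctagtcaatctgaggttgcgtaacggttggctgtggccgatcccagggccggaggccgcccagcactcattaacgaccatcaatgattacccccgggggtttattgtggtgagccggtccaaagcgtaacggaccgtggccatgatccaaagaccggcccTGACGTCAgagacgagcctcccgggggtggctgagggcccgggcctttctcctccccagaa
PPP1R15A: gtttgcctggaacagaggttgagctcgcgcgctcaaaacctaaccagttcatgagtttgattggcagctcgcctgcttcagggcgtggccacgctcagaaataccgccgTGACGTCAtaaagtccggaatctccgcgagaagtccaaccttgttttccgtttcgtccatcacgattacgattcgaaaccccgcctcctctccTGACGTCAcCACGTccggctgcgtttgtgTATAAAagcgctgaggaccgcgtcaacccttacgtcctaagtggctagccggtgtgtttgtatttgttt
SRXN1: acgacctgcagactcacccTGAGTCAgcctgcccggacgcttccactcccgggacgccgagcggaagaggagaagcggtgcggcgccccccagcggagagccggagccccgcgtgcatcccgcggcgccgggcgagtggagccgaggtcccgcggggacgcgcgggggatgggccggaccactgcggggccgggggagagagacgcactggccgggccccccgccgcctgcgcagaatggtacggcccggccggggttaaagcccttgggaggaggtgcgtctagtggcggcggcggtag
TGACGTCA began 11 bases before the start of PCK1 and at 141 and 48 bases before that of PPP1R15A, where ACGTG (read as CACGT) and TATAAA also occurred, and TGAGTCA began 231 bases before the start of SRXN1. Over all 19534 promoter windows of the annotation, TGACGTCA occurred in 2.26%, TGAGTCA in 3.4%, ACGTG in 22.3%, TATAAA in 10.9%, GAANNTTC in 6.34% and the CArG box in 1.53%. Of the 47 immediate early genes with a window, 5 held TGACGTCA, 1 TGAGTCA, 14 ACGTG, 10 TATAAA, 2 GAANNTTC and 4 the CArG box. These matches describe the letters of the windows and are not shown to be used.

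Prostanoid genes leaned toward higher levels. PTGS2, the inducible cyclooxygenase that makes the precursor of prostaglandins (chr9:127850164-127858866, minus strand), stood at 1.94, 5.39 and 2.30 CPM in controls and at 25.4, 11.6 and 15.5 CPM in ischemic libraries. The groups did not overlap, ischemic B was lowest among the ischemic libraries, and the value of control C rested on 3 counts. The log2 difference was 2.30 ± 0.44 (adjusted p 0.000339 in DESeq2, 0.0742 in edgeR). PLA2G4A, the phospholipase that releases arachidonic acid for it, stood at 9.60, 14.6 and 13.8 CPM against 35.3, 14.8 and 26.8 CPM, so ischemic B was level with control B (log2 difference 1.02 ± 0.34, DESeq2 adjusted p 0.0902). The genes of PTGS2 and PLA2G4A share 5286 bases on opposite strands, and the strand setting of the counting is not given in the sources used here, so reads there could not be assigned with certainty. The receptors PTGFR and PTGER2 had log2 differences of 1.33 ± 0.41 (DESeq2 adjusted p 0.0852) and 0.79 ± 0.28 (DESeq2 adjusted p 0.137), and PTGER2 shares 12415 bases with PTGDR on the same strand. Of 18 prostanoid genes tested, 4 were higher and 0 lower at an unadjusted p under 0.05 in edgeR (1 without ischemic A), and DESeq2 called 1. The median was 0.55 and ranged from 0.34 to 0.79 over the alternatives.

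Among cytokines, chemokines and NF-κB targets, 7 of 43 genes tested were higher and 5 lower at an unadjusted p under 0.05 in edgeR, with a median of 0.11. CXCL8, the chemokine that draws neutrophils, stood at 16.5, 13.7 and 6.14 CPM in controls and at 53.1, 30.8 and 36.7 CPM in ischemic libraries, with no overlap (log2 difference 1.62 ± 0.33, adjusted p 0.000941 in DESeq2 and 0.0742 in edgeR). NFKBIA, the inhibitor that NF-κB itself induces, stood at 175, 208 and 179 CPM in controls and at 83.9, 104 and 84.0 CPM in ischemic libraries, again with no overlap (log2 difference -1.05 ± 0.21, DESeq2 adjusted p 0.00225). IL1A, an alarmin of epithelial cells, was counted 2, 7 and 1 times in controls and 24, 19 and 12 times in ischemic libraries (log2 difference 2.60 ± 0.68, edgeR adjusted p 0.107), and DESeq2 gave it no adjusted p. IL6 was at 2, 3 and 0 counts in controls and 1, 0 and 1 in ischemic libraries, which is at the floor of 3 counts in every library. Without control B the counts of this list were 11 higher and 2 lower, and the lower count was 2 without ischemic A or ischemic C and 3 without ischemic B. Without scaling factors 11 were higher and 2 lower, and the median turned to -0.04 without control A.

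Interferon-response genes had 4 of 43 members higher and 8 lower at an unadjusted p under 0.05 in edgeR and a median of -0.25, but without scaling factors 4 were higher and 2 lower and the median was -0.02. Without control B 6 were higher and 4 lower. UBD (FAT10), a ubiquitin-like modifier induced by interferon gamma, stood at 437, 746 and 878 CPM in controls and 303, 272 and 331 CPM in ischemic libraries (log2 difference -1.18 ± 0.29, DESeq2 adjusted p 0.00527). IRF1, a transcription factor that relays the interferon signal, had a log2 difference of -0.78 ± 0.26 (DESeq2 adjusted p 0.0631), and its gene overlaps SLC22A5 on the other strand. The activators of MHC genes lay the other way. NLRC5, which acts on class I genes, stood at 94.3, 98.8 and 50.6 CPM against 170, 159 and 144 CPM (log2 difference 0.93 ± 0.26, DESeq2 adjusted p 0.0305), and CIITA, which acts on class II genes and overlaps DEXI on the other strand, had a log2 difference of 0.84 ± 0.27 (DESeq2 adjusted p 0.0860). IFNG itself stood at 3.96, 4.06 and 1.53 CPM in controls and 12.6, 4.09 and 6.84 CPM in ischemic libraries, where ischemic B was level with control B. The count of lower members was 3 without ischemic A and 2 without ischemic C, and that of higher members was 2 without control A or ischemic A.

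**Figure D2:**
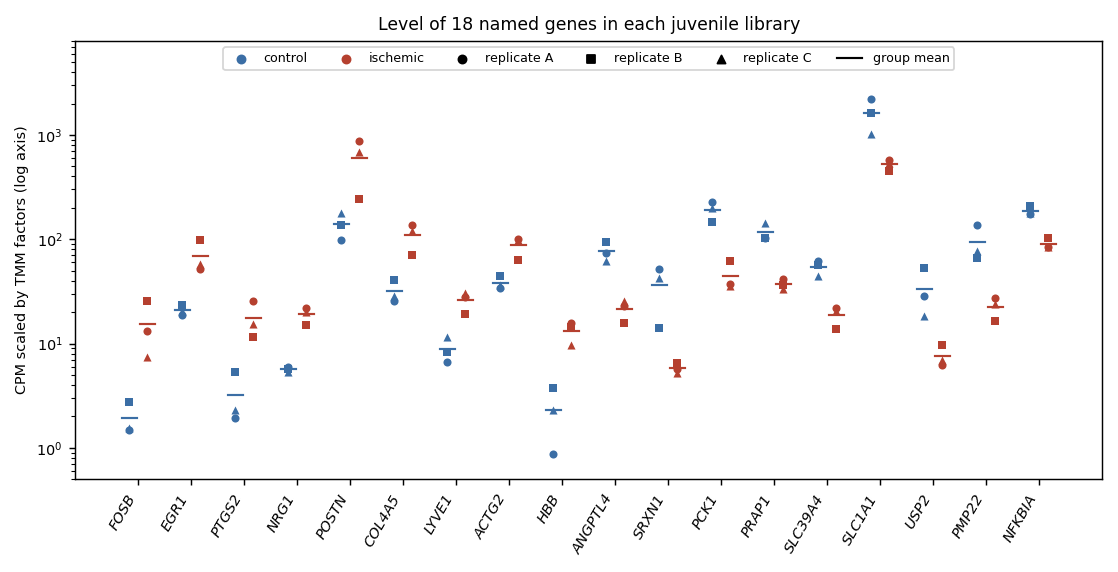
Level of 18 named genes in each juvenile library, as TMM-scaled CPM on a log axis. Blue marks are control and red marks ischemic libraries, circles, squares and triangles are replicates A, B and C, and bars are group means. The 3 ischemic libraries lie on 1 side of the 3 controls for each of the 18 genes, and ischemic B (red squares) lies nearest to the controls for POSTN, COL4A5 and ACTG2.

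Genes of the extracellular matrix were mostly higher in ischemic mucosa. Of 41 matrix glycoproteins and proteoglycans tested, 40 had positive log2 differences, 20 were higher and 0 lower at an unadjusted p under 0.05 in edgeR, DESeq2 called 12, and the median was 0.87 against -0.01 for all genes tested. POSTN, the matricellular protein periostin (chr11:13225183-13258973, minus strand), stood at 97.5, 138 and 180 CPM in controls and at 871, 243 and 683 CPM in ischemic libraries. Ischemic A and C were several times above every control and ischemic B was nearer to control C than to either of them. The log2 difference was 2.12 ± 0.44 (adjusted p 5.66e-05 in DESeq2, 0.0821 in edgeR). FN1, fibronectin, on which migrating epithelium gains a hold, stood at 146, 356 and 184 CPM against 677, 555 and 750 CPM (log2 difference 1.53 ± 0.34, DESeq2 adjusted p 0.000824). FBN2, a microfibril protein, had a log2 difference of 1.80 ± 0.37 (DESeq2 adjusted p 0.000715), and LUM, the proteoglycan lumican that spaces collagen fibrils, 1.21 ± 0.28 (DESeq2 adjusted p 0.00783).

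Fibrillar and associated collagens followed the same direction, with 9 of 17 higher and 0 lower at an unadjusted p under 0.05 in edgeR, 6 called by DESeq2 and a median of 1.01. COL5A2, a regulatory chain of collagen fibrils, stood at 42.1, 69.0 and 54.5 CPM in controls and at 144, 101 and 135 CPM in ischemic libraries (log2 difference 1.197 ± 0.25, DESeq2 adjusted p 0.00289). COL3A1, of the soft reticular fibrils, stood at 131, 284 and 264 CPM against 520, 364 and 487 CPM (log2 difference 1.02 ± 0.31, DESeq2 adjusted p 0.0327). COL1A1, the main chain of type I collagen, had groups that did not overlap but a difference of only 0.83 ± 0.30 (DESeq2 adjusted p 0.0984), while its partner COL1A2 had 1.01 ± 0.27 (DESeq2 adjusted p 0.0183). COL6A3 of the pericellular beaded filaments had a log2 difference of 1.01 ± 0.26 (DESeq2 adjusted p 0.0160) and COL27A1 1.49 ± 0.35 (DESeq2 adjusted p 0.0261). SERPINH1, the collagen chaperone HSP47, was the clearest member of the heat shock list, at 26.7, 49.7 and 29.1 CPM against 89.9, 56.6 and 94.5 CPM (log2 difference 1.17 ± 0.30, DESeq2 adjusted p 0.0160). HSPB8, a small heat shock protein of muscle, had a log2 difference of 1.48 ± 0.39 (DESeq2 adjusted p 0.0542). The heat shock list as a whole had 2 of 28 members higher and 1 lower (4 lower without control A, 2 without ischemic B and 0 without ischemic A or ischemic C), with a median of -0.12 that turned to 0.12 without scaling factors.

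Basement membrane genes were mostly higher. Of 26 tested, 16 were higher and 3 lower at an unadjusted p under 0.05 in edgeR, DESeq2 called 9 and 1, and the median was 0.88. The higher share was 61.5%, against 10.3% of all genes tested, and the lower share was 11.5%, against 8.3%. The lower count was 1 without control A, control B, ischemic A or ischemic C. COL4A5, a chain of the type IV collagen network (chrX:88958837-89183306), stood at 25.7, 41.0 and 28.4 CPM in controls and at 136, 70.6 and 120 CPM in ischemic libraries, with no overlap (log2 difference 1.76 ± 0.29, adjusted p 4.44e-05 in DESeq2 and 0.0642 in edgeR). LAMA4, the laminin chain of vascular and muscle basement membranes, stood at 33.8, 51.5 and 43.0 CPM against 126, 87.5 and 121 CPM (log2 difference 1.38 ± 0.24, DESeq2 adjusted p 0.000350). LAMA5, the laminin chain under epithelia, had a smaller difference of 0.90 ± 0.23 (DESeq2 adjusted p 0.0288), and PXDN, the peroxidase that crosslinks type IV collagen, 1.17 ± 0.25 (DESeq2 adjusted p 0.00645). COL17A1, the transmembrane collagen with which epithelial cells anchor to the basement membrane, lay the other way, at 130, 194 and 137 CPM in controls and at 59.6, 37.0 and 78.5 CPM in ischemic libraries (log2 difference -1.40 ± 0.29, DESeq2 adjusted p 0.00225).

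Integrins, the receptors that hold cells to this matrix, had 10 of 24 subunits higher and 1 lower at an unadjusted p under 0.05 in edgeR, with a median of 0.36. ITGB3 stood at 12.5, 15.6 and 19.2 CPM in controls and at 45.1, 29.6 and 39.1 CPM in ischemic libraries (log2 difference 1.31 ± 0.26, DESeq2 adjusted p 0.00263). ITGA5, the fibronectin receptor chain, was closely grouped, at 30.2, 29.2 and 29.9 CPM against 53.8, 53.5 and 56.1 CPM (log2 difference 0.87 ± 0.20, DESeq2 adjusted p 0.0176). ITGA11, a collagen receptor chain of fibroblasts, had a log2 difference of 1.501 ± 0.35 (DESeq2 adjusted p 0.0111), and ITGAM, the chain of myeloid cells, 0.97 ± 0.27 (DESeq2 adjusted p 0.0416). ITGB1, the common β chain, lay between 353 and 411 CPM in all 6 libraries with a log2 difference of 0.12 ± 0.22. The count of higher subunits was 5 without control A, 4 without ischemic A and 5 without ischemic C, and 2 were lower without control B, control C, ischemic A or ischemic B. At the focal adhesions behind the integrins, 8 of 31 genes were higher and 1 lower (5 higher and 0 lower without ischemic A or ischemic C, 0 lower without control A and 3 lower without ischemic B), with a median of 0.03 that ranged from -0.06 to 0.28 over the alternatives. The tensin TNS2 stood at 9.52, 12.3 and 8.44 CPM against 30.1, 24.5 and 27.7 CPM (log2 difference 1.39 ± 0.24, DESeq2 adjusted p 0.00124), the kindlin FERMT2 had a log2 difference of 1.497 ± 0.32 (DESeq2 adjusted p 0.00253), and the actin crosslinker FLNA 0.98 ± 0.26 (DESeq2 adjusted p 0.0120).

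Genes that cut matrix were among those on the same side. Of 16 matrix metalloproteinases tested, 7 were higher and 1 lower at an unadjusted p under 0.05 in edgeR, with MMP3, stromelysin, at a log2 difference of 1.42 (DESeq2 adjusted p 0.000300) and MMP2 at 0.98 (DESeq2 adjusted p 0.0280), and 10 of 21 ADAMTS and 5 of 13 ADAM genes were higher with none lower. Without ischemic A the counts of higher MMP and ADAM genes were 4 and 3, and without control A that of ADAM genes was 3. No MMP gene was lower without ischemic A or ischemic C.

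Several growth factors and morphogens that mesenchymal cells are known to make were higher. NRG1, a ligand of the ERBB receptors (chr15:52625550-53688003, minus strand), stood at 5.99, 5.68 and 5.37 CPM in controls and at 22.1, 15.0 and 20.2 CPM in ischemic libraries. Controls were closely grouped and far from every ischemic library, and the log2 difference was 1.73 ± 0.27 (adjusted p 0.000258 in DESeq2, 0.0642 in edgeR). HGF, the ligand of MET that sets epithelial cells in motion, stood at 2.73, 5.16 and 6.91 CPM against 18.1 CPM in ischemic A and just over 11 CPM in ischemic B and C (log2 difference 1.58 ± 0.38, DESeq2 adjusted p 0.0120), and IGF1 had a log2 difference of 1.499 ± 0.36 (DESeq2 adjusted p 0.0188). Of 34 genes of EGF, HGF, FGF and IGF signaling, 9 were higher and 1 lower at an unadjusted p under 0.05 in edgeR, with a median of 0.48. The lower count was 3 without control C, 4 without ischemic B and 0 without ischemic C. Among TGF-β and BMP genes 9 of 36 were higher and 3 lower (1 lower without control A), with a median of 0.17. BMP5 stood at 22.1, 20.8 and 11.5 CPM against 71.8, 35.1 and 61.6 CPM (log2 difference 1.56 ± 0.32, DESeq2 adjusted p 0.00102). BMP2, made by enterocytes toward the villus tip, lay the other way at 75.5, 56.4 and 39.1 CPM against 25.97, 27.5 and 27.1 CPM (log2 difference -1.11 ± 0.25, DESeq2 adjusted p 0.0115).

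Wnt and Notch genes had 7 of 35 members higher and 2 lower at an unadjusted p under 0.05 in edgeR (3 higher and 0 lower without ischemic A, 4 higher and 1 lower without ischemic C, 4 lower without ischemic B). Their median was 0.41 and ranged from 0.27 to 0.83 over the alternatives. WNT5A, a Wnt of the subepithelial mesenchyme, stood at 10.5, 10.3 and 4.60 CPM in controls and 33.8, 17.2 and 30.1 CPM in ischemic libraries (log2 difference 1.55 ± 0.33, DESeq2 adjusted p 0.00337). WNT2B, which overlaps ST7L on the other strand, had a log2 difference of 1.19 ± 0.27 (DESeq2 adjusted p 0.0160), and the Notch ligand DLL1 1.41 ± 0.28 (DESeq2 adjusted p 0.00263). LGR5, the receptor that marks crypt stem cells and overlaps TSPAN8 on the other strand, stood at 8.11, 7.71 and 6.14 CPM against 13.6, 6.44 and 12.8 CPM, where ischemic B lay among the controls (log2 difference 0.52 ± 0.34, DESeq2 adjusted p 0.504), and none of 15 stem cell markers was past an unadjusted p of 0.05 in edgeR with all 6 libraries, while 3 were higher without control A, 2 without ischemic B, 1 without control C and 4 without scaling factors. The HOX genes, transcription factors that keep positional identity in mesenchyme and epithelium, had 8 of 19 members higher and 0 lower (5 higher without control A, ischemic A or ischemic C), with a median of 1.21. HOXA5 was counted 4, 20 and 2 times in controls and 42, 50 and 22 times in ischemic libraries (log2 difference 2.27 ± 0.55, DESeq2 adjusted p 0.0192) and shares 3033 bases with HOXA3 on the same strand, HOXC6 had a log2 difference of 1.66 (DESeq2 adjusted p 0.0310), and HOXB5 2.31 with no adjusted p from DESeq2.

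Fibroblast, endothelial and smooth muscle markers leaned higher too. The fibroblast list shares COL1A1, COL1A2, COL3A1 and COL6A3 with the collagen list and DCN, LUM, DPT, POSTN and FBLN1 with the matrix list. It also shares SFRP1 and GREM1 with the Wnt and TGF-β lists, so its direction was not independent of theirs. All 16 fibroblast markers tested had positive log2 differences, 11 were higher and 0 lower at an unadjusted p under 0.05 in edgeR, and the median was 0.98. Their summed level was 905, 1685 and 1388 CPM in controls and 3822, 2168 and 3369 CPM in ischemic libraries, with ADAMDEC1, a disintegrin-like protease of lamina propria fibroblasts, as the most abundant (22.2% of the sum). ADAMDEC1 stood at 223, 361 and 193 CPM against 950, 452 and 784 CPM (log2 difference 1.49 ± 0.34, DESeq2 adjusted p 0.00111). PDGFRB, the receptor of pericytes and fibroblasts, had a log2 difference of 0.95 ± 0.23 (DESeq2 adjusted p 0.0227). MFAP5 and PI16 did not pass the CPM minimum. The part of fibroblast content in the matrix, protease and growth factor results was not tested.

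Endothelial and lymphatic markers had 20 of 20 members positive, 13 higher at an unadjusted p under 0.05 in edgeR (8 without control A) and a median of 0.85. Their sum was 345.7, 582.2 and 459.6 CPM in controls and 794.4, 700.9 and 927.9 CPM in ischemic libraries, without overlap between the groups, with PLVAP of fenestrated capillaries as the most abundant (20.6% of the sum). LYVE1, the hyaluronan receptor of lymphatics, stood at 6.70, 8.23 and 11.5 CPM against 28.1, 19.3 and 30.3 CPM (log2 difference 1.64 ± 0.29, DESeq2 adjusted p 0.000536). KDR, the main VEGF receptor, stood at 23.1, 37.8 and 23.0 CPM against 76.2, 58.0 and 80.2 CPM (log2 difference 1.32 ± 0.26, DESeq2 adjusted p 0.00175). FLT4, the lymphatic VEGF receptor, had a log2 difference of 1.44 ± 0.32 (DESeq2 adjusted p 0.0109) and VWF, the platelet-binding protein of endothelium, 0.94 ± 0.24 (DESeq2 adjusted p 0.0246). PECAM1, a junction protein of all endothelium, overlapped between the groups at 48.7, 97.1 and 71.3 CPM against 109, 81.2 and 129 CPM (log2 difference 0.56 ± 0.28, DESeq2 adjusted p 0.321).

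Smooth muscle markers depended on control C. All 20 had positive log2 differences, with 12 higher at an unadjusted p under 0.05 in edgeR and a median of 0.95, and without control C 19 were higher and the median was 1.24. The sum was 507.0, 919.4 and 1531 CPM in controls and 1999, 1351 and 1499 CPM in ischemic libraries, so control C lay above ischemic B and C. The part of muscle content in the matrix results was not tested. MYH11, the smooth muscle myosin and the most abundant marker (20.8% of the sum), stood at 68.2, 169 and 419 CPM in controls and 398, 292 and 280 CPM in ischemic libraries, and its log2 difference of 0.58 ± 0.57 became 1.45 without control C. Over all alternatives the MYH11 difference ranged from 0.15 to 1.45. Other members kept their groups apart with all libraries. SMTN, smoothelin, stood at 18.4, 20.9 and 19.9 CPM against 40.4, 43.2 and 41.4 CPM (log2 difference 1.08 ± 0.21, DESeq2 adjusted p 0.00415). ACTG2 had a log2 difference of 1.18 ± 0.24 (DESeq2 adjusted p 0.00359), TAGLN 1.45 ± 0.31 (DESeq2 adjusted p 0.00263), ACTA2 1.05 ± 0.29 (DESeq2 adjusted p 0.0211), and MYOCD, the switch of the smooth muscle program, 1.72 ± 0.38 (DESeq2 adjusted p 0.0226, 1 count in control C).

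Glial and neuronal markers were near the limit of these libraries. Of 16 enteric glia markers listed, 8 passed the CPM minimum, 2 of them were higher at an unadjusted p under 0.05 in edgeR (1 without control C, ischemic A or ischemic C), and 1 was lower without control C or ischemic B. Their median was 0.12 and ranged from -0.11 without control A to 0.87 without control B. GFAP, the intermediate filament of glia, was counted 2, 6 and 0 times in controls and 11, 7 and 6 times in ischemic libraries. NCAM1, an adhesion molecule of glia, nerve and other cells, had a log2 difference of 0.85 ± 0.27 (DESeq2 adjusted p 0.106). The receptor ERBB3, which epithelium also carries, made up 95.5% of the summed glial level, so this sum described it and not glia. S100B did not pass the minimum and was not analysed here. Of 11 enteric neuron markers 1 was higher, STMN2, with a log2 difference of 1.65 (DESeq2 adjusted p 0.0398). The median of these markers was -0.30, which ranged from -0.65 without control A to 0.52 in DESeq2 with the replicate block. It was also positive without control B and with edgeR's filterByExpr filter on low counts. Without control B 2 were higher, and without ischemic B 1 was lower.

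**Figure D3:**
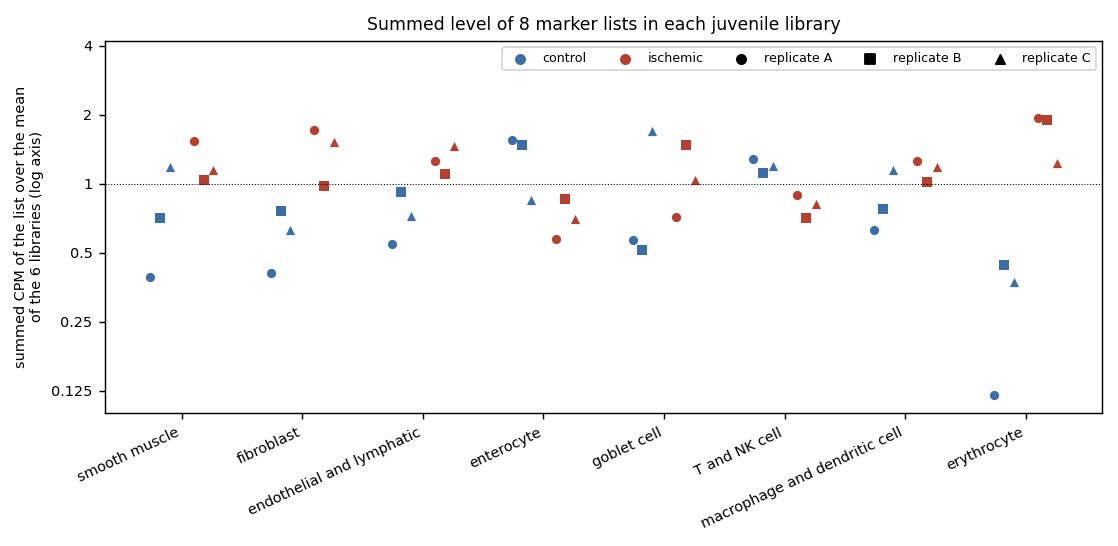
Summed TMM-scaled CPM of 8 marker lists in each juvenile library, divided by the mean of the 6 libraries, on a log axis. Blue marks are control and red marks ischemic libraries, with circles, squares and triangles for replicates A, B and C. Fibroblast, endothelial and erythrocyte sums separate upward and T and NK cell sums downward, while control C overlaps the ischemic libraries in the smooth muscle, enterocyte, and macrophage and dendritic cell sums.

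Markers of blood and mast cells were low. HBB, the β chain of hemoglobin (chr9:4800683-4801941, minus strand), stood at 0.881, 3.77 and 2.30 CPM in controls and at 15.7, 14.5 and 9.73 CPM in ischemic libraries (log2 difference 2.48 ± 0.48, adjusted p 0.000315 in DESeq2 and 0.0742 in edgeR). ALAS2, the heme synthesis enzyme of red cell precursors, had a log2 difference of 2.31 ± 0.60 (DESeq2 adjusted p 0.0410). The 6 erythrocyte markers summed to 1.23, 4.52 and 3.84 CPM in controls and 19.9, 19.5 and 12.6 CPM in ischemic libraries, without overlap, and 4 of them had groups that did not overlap. GATA2, a transcription factor of mast cells and endothelium, stood at 0.617, 2.03 and 0.767 CPM against 7.36, 2.70 and 7.45 CPM (log2 difference 2.13 ± 0.57, DESeq2 adjusted p 0.0216), and HDC, which makes histamine, was counted 3, 19 and 1 times in controls and 50, 18 and 41 times in ischemic libraries. Of 5 mast cell and eosinophil markers tested 4 were higher at an unadjusted p under 0.05 in edgeR (2 without control C, ischemic A or ischemic C). Their sum was 2.996, 14.95 and 12.3 CPM in controls and 57.6, 15.5 and 42.3 CPM in ischemic libraries, so ischemic B was level with control B, and 3 of the 5 had groups that did not overlap. MS4A2, the β chain of the IgE receptor, was the most abundant (65.4% of the sum), and CPA3, CMA1 and the tryptases were not analysed here. The part of blood content in other results was not tested.

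Epithelial absorptive genes lay the other way. Of 31 brush-border enzymes and microvillus proteins tested, 1 had a positive log2 difference, 0 were higher and 18 lower at an unadjusted p under 0.05 in edgeR, DESeq2 called 10, and the median was -0.89 (-0.997 without control C). ESPN, espin, an actin bundler of microvilli, stood at 123, 148 and 242 CPM in controls and at 52.5, 62.3 and 57.5 CPM in ischemic libraries (log2 difference -1.56 ± 0.27, adjusted p 0.000124 in DESeq2 and 0.0642 in edgeR). ACE, a peptidase of the brush border and of endothelium, stood at 412, 600 and 312 CPM against 84.9, 233 and 88.7 CPM (log2 difference -1.70 ± 0.42, DESeq2 adjusted p 0.00175). GGT1, which splits glutathione at the surface, had a log2 difference of -1.42 ± 0.30 (DESeq2 adjusted p 0.00392), and USH1C, harmonin, a linker of microvillus tips, -1.25 ± 0.29 (DESeq2 adjusted p 0.00741). VIL1 had a log2 difference of -0.99 ± 0.31 (DESeq2 adjusted p 0.0210), and its gene overlaps USP37 on the other strand. SI stood at 10900, 7169 and 4179 CPM against 4033, 5945 and 4543 CPM, where control C lay among the ischemic libraries (log2 difference -0.62 ± 0.40, DESeq2 adjusted p 0.316, and -0.89 with 0.0240 without control C). The count of lower members was 11 without control B, ischemic A or ischemic C, and 23 without control C.

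Transporters followed the brush border, with 0 of 39 nutrient and ion transport genes higher and 20 lower at an unadjusted p under 0.05 in edgeR, 9 called by DESeq2 and a median of -0.82. The count was 12 without control B or ischemic C, 13 without ischemic A and 25 without control C. SLC39A4, the zinc importer ZIP4 (chr4:372681-378519), stood at 61.4, 56.3 and 44.5 CPM in controls and at 21.9, 13.8 and 20.4 CPM in ischemic libraries (log2 difference -1.55 ± 0.25, adjusted p 0.000131 in DESeq2 and 0.0642 in edgeR). SLC1A1, the glutamate transporter of enterocytes, stood at 2234, 1635 and 1023 CPM against 578, 452 and 535 CPM (log2 difference -1.65 ± 0.32, DESeq2 adjusted p 4.63e-05). SLC3A1, the heavy chain of the transporter of cystine and basic amino acids, had a log2 difference of -1.49 ± 0.33 (DESeq2 adjusted p 0.00253), with a gene that overlaps PREPL on the other strand. AQP3, a basolateral water and glycerol channel, had -1.17 ± 0.27 (DESeq2 adjusted p 0.0104). Over the whole SLC family, 24 of 270 genes were higher and 45 lower, which became 43 and 22 without scaling factors, and 10 were higher without ischemic A and 26 and 27 lower without ischemic A and ischemic C.

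Lipid absorption leaned lower, with 6 of 23 genes lower at an unadjusted p under 0.05 in edgeR (11 without control C). That was 26.1%, against 8.3% of all genes tested. The 2 higher genes were 8.7%, below the 10.3% of all genes tested. The median was -0.63 and ranged from -0.81 to -0.32 over the alternatives. APOA1, the main protein of high-density lipoprotein, stood at 1025, 2974 and 2445 CPM in controls and 1014, 523 and 776 CPM in ischemic libraries, where control A and ischemic A nearly met (log2 difference -1.48 ± 0.41, DESeq2 adjusted p 0.00647). ACSL3, which activates fatty acids, stood at 260, 282 and 194 CPM against 145, 86.0 and 128 CPM (log2 difference -1.04 ± 0.26, DESeq2 adjusted p 0.0146). APOA4 varied among controls at 349, 1673 and 373 CPM against 152, 423 and 140 CPM (log2 difference -1.75 ± 0.75, DESeq2 adjusted p 0.262), and FABP2, the fatty acid carrier of enterocytes, overlapped between groups (log2 difference -0.94 ± 0.45, DESeq2 adjusted p 0.175). Over the alternatives these log2 differences ranged from -2.45 to -0.56 for APOA4 and from -1.30 to -0.20 for FABP2. The surface receptors SCARB1 and CD36, which other cells of the wall carry as well, were on the higher side with log2 differences of 1.18 ± 0.29 (DESeq2 adjusted p 0.0184) and 0.89 ± 0.22 (DESeq2 adjusted p 0.0258). Cholesterol synthesis had 0 of 24 genes higher and 2 lower (5 lower and 1 higher without control C, 1 lower without control B or ischemic C and 0 without ischemic A), and the median of -0.22 turned to 0.01 without scaling factors. The 18 enterocyte markers summed to 54770, 52100 and 30060 CPM in controls and 20250, 30160 and 24840 CPM in ischemic libraries, so control C met ischemic B, and ANPEP, the aminopeptidase, was the most abundant (20.3% of the sum). Of these 18 markers 7 were lower at an unadjusted p under 0.05 in edgeR, 11 without control C, 10 without ischemic B, 3 without control B and 4 without ischemic A or ischemic C, and the median was -0.92. Most of these markers also belong to the brush-border, transport, lipid or junction lists, and only EPCAM, KRT8 and KRT18 do not. Their sum and median are therefore no separate measure of enterocyte content. How far enterocyte content accounts for the brush-border and transport results was not tested.

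The gene with the lowest edgeR p among named genes on the lower side was PCK1, the gluconeogenic enzyme that makes phosphoenolpyruvate (chr17:57930507-57936523), whose window with TGACGTCA is printed above. It stood at 226, 145 and 197 CPM in controls and at 37.0, 61.6 and 35.7 CPM in ischemic libraries. Every ischemic library lay below every control, and the log2 difference was -2.07 ± 0.28 (adjusted p 7.91e-08 in DESeq2, 0.0642 in edgeR). FBP1, another gluconeogenic enzyme, had a log2 difference of -1.004 ± 0.30 (DESeq2 adjusted p 0.0590), and TPI1 of glycolysis -0.55 ± 0.20 (DESeq2 adjusted p 0.2002). Glycolysis as a list had 0 of 25 genes higher and 6 lower at an unadjusted p under 0.05 in edgeR (3 without control B or ischemic A), with a median of -0.22 that turned to 0.04 without scaling factors. PPARD, a nuclear receptor of fatty acids, led the fatty acid oxidation list at -0.98 (DESeq2 adjusted p 0.0111), and 3 of its 30 genes were lower (11 without ischemic B, 1 without ischemic A or ischemic C).

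Targets of the hypoxia-inducible factor HIF-1 did not lean to the higher side. Of 34 tested, 3 were higher and 6 lower at an unadjusted p under 0.05 in edgeR, and the median was 0.01, which ranged from -0.10 without control C to 0.26 without scaling factors. The higher count was 7 without control B and 5 without ischemic B. ANGPTL4, an inhibitor of lipoprotein lipase (chr2:70905767-70912892, minus strand), stood at 73.8, 94.4 and 61.4 CPM in controls and at 22.8, 15.7 and 25.6 CPM in ischemic libraries, with no overlap (log2 difference -1.86 ± 0.26, adjusted p 2.47e-06 in DESeq2 and 0.0642 in edgeR). MXI1, an antagonist of MYC, stood at 190, 124 and 235 CPM against 73.2, 77.8 and 79.8 CPM (log2 difference -1.24 ± 0.26, DESeq2 adjusted p 0.00225). CITED2, a brake on HIF-1 itself, had a log2 difference of -1.03 ± 0.25 (DESeq2 adjusted p 0.0176), and DDIT4, a brake on mTOR, -0.88 ± 0.22 (DESeq2 adjusted p 0.0422). HIF1A overlapped between the groups with 0.08 ± 0.24, a sign that turned without ischemic C, and VEGFA overlapped with -0.26 ± 0.21.

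Antioxidant genes and targets of NRF2 had 2 of 38 members higher and 12 lower at an unadjusted p under 0.05 in edgeR and a median of -0.30, but without scaling factors 2 were higher and 1 lower and the median was -0.05. The lower count was 7 without control A, 6 without control B and 4 without ischemic A or ischemic C, and 1 was higher without control A, ischemic A or ischemic C. SRXN1, sulfiredoxin, which restores overoxidized peroxiredoxins (chr17:34582377-34589308, window printed above), stood at 51.6, 14.2 and 43.0 CPM in controls and at 5.70, 6.58 and 5.17 CPM in ischemic libraries. The ischemic libraries were nearly level and control B was the lowest control but still above them all. The log2 difference was -2.60 ± 0.44 (adjusted p 2.77e-06 in DESeq2, 0.0696 in edgeR). TXNRD1, a thioredoxin reductase, had a log2 difference of -0.70 ± 0.22 (DESeq2 adjusted p 0.0599). GSTA2, a glutathione transferase of a gene family with near copies, had -0.73 ± 0.24 (DESeq2 adjusted p 0.138), and AOX1, aldehyde oxidase, lay higher at 1.62 ± 0.37 (DESeq2 adjusted p 0.0205). In the unfolded protein and integrated stress response 0 of 32 genes were higher and 2 lower (5 lower without control A, and 2 higher and 2 lower without scaling factors), among them TRIB3, a stress pseudokinase, at 14.2, 18.1 and 9.21 CPM against 5.42, 3.25 and 6.24 CPM (log2 difference -1.56 ± 0.34, DESeq2 adjusted p 0.00924), and the median of -0.19 turned to 0.06 without scaling factors. Among 29 cell death genes 4 were lower (2 without control B or ischemic B) and 0 higher, led by GSDME, a pore-forming gasdermin, at -1.12 ± 0.23 (DESeq2 adjusted p 0.00791), and the median of -0.13 turned to 0.10 without scaling factors.

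Genes of cell junctions were lower in part. Tight junction genes had 0 of 21 higher and 5 lower at an unadjusted p under 0.05 in edgeR, DESeq2 called 0, and the median was -0.44. The lower count was 2 without control A, 3 without control B, 8 without control C, 9 without ischemic B and 0 without ischemic A or ischemic C. OCLN, occludin, stood at 301, 278 and 289 CPM in controls and at 145, 240 and 178 CPM in ischemic libraries, without overlap (log2 difference -0.63 ± 0.24, DESeq2 adjusted p 0.163). MARVELD2, tricellulin, had -0.79 ± 0.26 (DESeq2 adjusted p 0.129), CGN, cingulin, -0.94 ± 0.33 (DESeq2 adjusted p 0.0808), and CLDN3, a sealing claudin, overlapped between groups with -0.54 ± 0.29 (DESeq2 adjusted p 0.382). CDH17, the cadherin of intestinal epithelium, stood at 1930, 1490 and 1202 CPM against 544, 827 and 644 CPM (log2 difference -1.199 ± 0.29, DESeq2 adjusted p 0.00212). The desmosomal protein PKP1 was counted 67, 12 and 6 times in controls and 1, 2 and 2 times in ischemic libraries. GJA1, the connexin of muscle and vessel walls, lay higher at 1.09 ± 0.28 (DESeq2 adjusted p 0.0227), and the list it belongs to had 5 of 29 genes higher and 4 lower, with 3 higher without ischemic C. The lower count was 11 without ischemic B, 7 without control C and 2 without control A, ischemic A or ischemic C. In the machinery of cell protrusion 3 of 31 genes were higher and 7 lower (1 higher and 4 lower without ischemic A, 4 lower without control C), with EZR, the linker of membrane and actin in microvilli, at -1.12 ± 0.32 (DESeq2 adjusted p 0.0169), FSCN1, the bundler of filopodia, at -1.09 ± 0.26 (DESeq2 adjusted p 0.0162), and WASF3, an activator of actin branching, at 1.96 ± 0.39 (DESeq2 adjusted p 0.0109, 1 count in control C).

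Several other named genes, of different functions, were also lower. PRAP1, a secreted protein of enterocytes, stood at 103, 103 and 144 CPM in controls and at 41.4, 36.1 and 33.6 CPM in ischemic libraries (log2 difference -1.64 ± 0.22, adjusted p 2.35e-06 in DESeq2 and 0.0642 in edgeR). PMP22, a tetraspan membrane protein known from myelin, stood at 138, 66.2 and 76.7 CPM against 27.2, 16.3 and 23.9 CPM (log2 difference -2.08 ± 0.32, DESeq2 adjusted p 2.77e-06). USP2, a deubiquitinase, stood at 28.7, 53.2 and 18.4 CPM against 6.25, 9.70 and 6.997 CPM (log2 difference -2.16 ± 0.37, DESeq2 adjusted p 4.44e-05). The retinol dehydrogenase SDR16C5 had a log2 difference of -1.77 ± 0.29 (DESeq2 adjusted p 0.000214), FBXO48, an F-box protein, -1.30 ± 0.21 (DESeq2 adjusted p 0.000315), and SCTR, the secretin receptor, whose gene overlaps TMEM37, -2.34 ± 0.41 (DESeq2 adjusted p 0.00102). SULT1E1, which sulfates estrogens, varied widely among controls at 512, 118 and 257 CPM against 24.6, 73.0 and 20.4 CPM (log2 difference -2.90 ± 0.70, DESeq2 adjusted p 0.0128). HSD17B6, a steroid dehydrogenase, had -2.58 ± 0.56 (DESeq2 adjusted p 0.00137).

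Of the 12 largest differences on the lower side, 4 rested in part on control C. SAC3D1 stood at 32.0, 30.5 and 266 CPM in controls and at 12.8, 9.97 and 12.02 CPM in ischemic libraries, and its log2 difference of -3.17 ± 0.99 became -1.43 without control C. PPP1R1A, an inhibitor of protein phosphatase 1, stood at 16.1, 23.8 and 52.9 CPM against 3.33, 12.7 and 3.80 CPM, and went from -2.08 to -1.52. Over all alternatives PPP1R1A ranged from -3.045 to -1.52. FSD1 and HPCA had DESeq2 adjusted p of 0.193 and 0.146 without control C, against 0.00770 and 0.00854 with it. On the higher side GCNT3, which branches mucin sugars, stood at 7.31, 7.42 and 9.21 CPM against 52.1, 10.1 and 57.3 CPM, with a DESeq2 adjusted p of 0.000557 that became 0.0664 without control C. Its log2 difference of 2.36 lay between 1.93 and 2.86 in all alternatives. The other large differences on the higher side were CHST1, a sulfotransferase of keratan sulfate, at 2.03 ± 0.35 (DESeq2 adjusted p 0.000298), PI15 at 2.25 ± 0.56 (DESeq2 adjusted p 0.00937), the lipid-presenting CD1E at 2.21 ± 0.56 (DESeq2 adjusted p 0.0126), GPLD1 at 2.08 ± 0.44 (DESeq2 adjusted p 0.0120) in a gene that overlaps MRS2 and ALDH5A1, the small RNA gene RF00092 at 2.04 ± 0.41 (DESeq2 adjusted p 0.00748), and the lipid transporter ABCA8 at 2.03 ± 0.54 (DESeq2 adjusted p 0.0120). Control C held 0 to 2 counts of ABCA8, PI15, CD1E, GPLD1 and RF00092.

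Immune cell markers differed from list to list. T and NK cell markers had 2 of 22 higher and 8 lower at an unadjusted p under 0.05 in edgeR (5 higher and 4 lower without ischemic B, 5 higher and 6 lower without control B, 2 higher and 4 lower without ischemic C, 1 higher and 5 lower without ischemic A, 1 higher and 7 lower without control A or control C, and 5 higher and 3 lower without scaling factors), and their sum was 1443, 1254 and 1342 CPM in controls and 999.5, 792.3 and 915.1 CPM in ischemic libraries, without overlap. CCL5, a chemokine of cytotoxic T cells, stood at 199, 211 and 381 CPM against 121, 102 and 133 CPM (log2 difference -1.14 ± 0.28, DESeq2 adjusted p 0.0110). CD3E, of the T cell receptor complex, stood at 360, 276 and 163 CPM against 136, 152 and 146 CPM (log2 difference -0.88 ± 0.28, DESeq2 adjusted p 0.0647), and GZMB, a killing protease, had -0.81 ± 0.25 (DESeq2 adjusted p 0.0916). CD4, which helper T cells and some myeloid cells carry, lay higher at 7.58, 6.43 and 10.7 CPM against 26.1, 14.2 and 20.5 CPM (log2 difference 1.39 ± 0.31, DESeq2 adjusted p 0.00934). Macrophage and dendritic cell markers had 6 of 18 higher and 0 lower, with 10 without control C and 3 without control B or ischemic A. Their median was 0.60 and ranged from 0.33 to 0.86 over the alternatives. XCR1, of cross-presenting dendritic cells, stood at 9.60, 12.2 and 11.5 CPM against 23.3, 24.9 and 24.6 CPM (log2 difference 1.14 ± 0.23, DESeq2 adjusted p 0.00899), in a gene that overlaps CCR1, and FLT3, the growth factor receptor of dendritic cells, had 1.32 ± 0.29 (DESeq2 adjusted p 0.00877). CD55, which shields cells from complement, stood at 1.76, 9.79 and 3.84 CPM against 23.8, 13.1 and 17.5 CPM (log2 difference 1.70 ± 0.55, DESeq2 adjusted p 0.0232). Its log2 difference ranged from 1.16 to 3.04 over the alternatives. Among complement genes 3 of 23 were higher (5 without control B, 8 without control C, 1 without ischemic A or ischemic C). Of 14 B and plasma cell markers none was past an unadjusted p of 0.05 in edgeR with all 6 libraries, while 4 were higher without control B, 3 lower without control A, 1 lower without ischemic B and 1 higher without scaling factors. Of 5 neutrophil markers 1 was higher (0 without control A or ischemic A), CXCR2, a receptor of CXCL8, at 1.14 ± 0.49 (DESeq2 adjusted p 0.269).

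Antimicrobial genes varied strongly among libraries of 1 group. REG3G, a lectin that enterocytes and Paneth-like cells release against bacteria (chr3:64847629-64850365, minus strand), stood at 344, 8.81 and 219 CPM in controls and at 1.11, 3.39 and 3.04 CPM in ischemic libraries. Control B was far below the other controls and still above each ischemic library (log2 difference -6.19 ± 1.5, adjusted p 0.000246 in DESeq2 and 0.136 in edgeR). LYZ, lysozyme, was split within both groups, at 14.6 CPM or less in controls A and C and 98.1 CPM in control B, against 969, 88.3 and 709 CPM, so control B and ischemic B were near each other (DESeq2 adjusted p 0.0324, 0.118 without control C). The log2 difference of LYZ was 3.77 and lay between 3.21 and 5.58 in all alternatives. DMBT1, a scavenger protein of the mucosa, stood at 161, 31.3 and 84.4 CPM against 10.3, 36.3 and 11.3 CPM, with B again level in both groups. Goblet cells had 0 of 9 markers past an unadjusted p of 0.05 in edgeR (4 higher without control C, 1 without control A and 3 without scaling factors), and MUC2, their mucin, overlapped at 329, 255 and 958 CPM against 244, 676 and 436 CPM, with a log2 difference of -0.18 ± 0.54 that became 0.64 without control C and 0.10 without scaling factors. CHGA, the granule protein of enteroendocrine cells, stood at 33.9, 64.4 and 186 CPM against 43.9, 60.05 and 41.2 CPM, and its log2 difference of -0.91 became -0.01 without control C. Proliferation genes had 0 of 34 higher and 1 lower (2 higher without control B or ischemic B, 0 lower without control B or ischemic A), TYMS at -0.53 ± 0.20 (DESeq2 adjusted p 0.219), and MKI67 overlapped with -0.12 ± 0.33, a sign that turned without control C, ischemic A or scaling factors.

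Other lists moved by more than 1.5 times without scaling factors, with the split of all genes. There the lower count was 10 for brush-border genes, 11 for transport genes, 4 for enterocyte markers, 3 for lipid absorption, 2 for glycolysis, protrusion and adherens junction genes, and 1 for fatty acid oxidation, cell death and tight junction genes. The lower count was also 1 for basement membrane genes and for cadherins, and 0 for the EGF, HGF, FGF and IGF, Wnt and Notch, heat shock, focal adhesion, cholesterol, proliferation, MMP, PDE, RGS and ribosomal protein genes. The higher count was 9 for complement genes, 14 for EGF, HGF, FGF and IGF signaling and 8 for ADAM genes, and 7 hypoxia genes were higher and 4 lower. It was 2 for ribosomal protein genes and 1 for glycolysis, cholesterol and proliferation genes. Protein phosphatase genes had 3 higher and 5 lower.

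**Figure D4:**
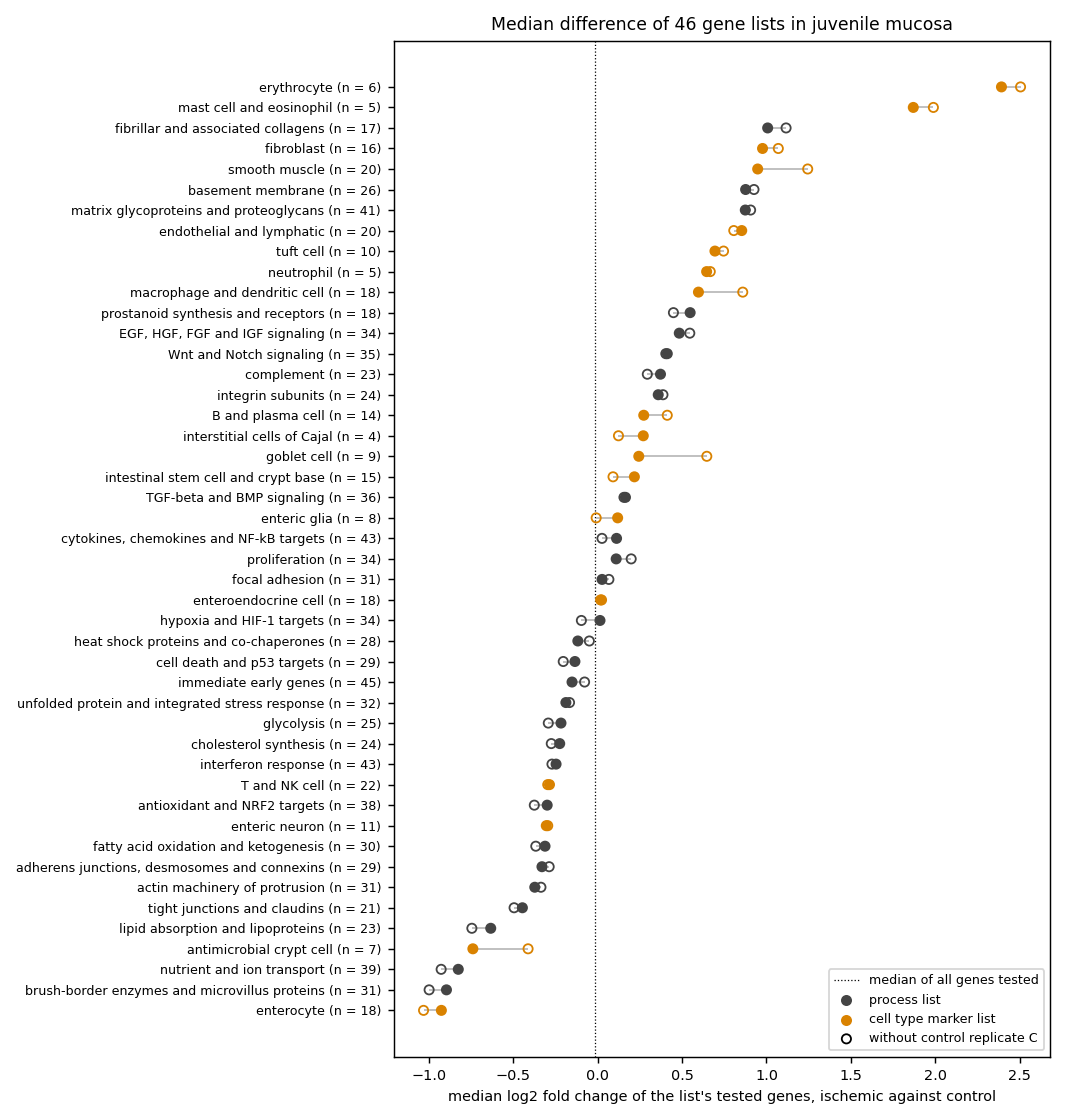
Median log2 fold change of ischemic against control mucosa in 46 gene lists. Filled points use all 6 libraries and open points leave out control C, gray is for lists of processes and orange for markers of cell types, and the dotted line is the median of all genes tested. Matrix, fibroblast, smooth muscle and endothelial lists lie near 1 and brush-border, transport and enterocyte lists near -0.9, and 6 lists with medians between -0.22 and 0 turned positive without scaling factors.

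Beyond these lists, gene families with shared symbols showed a few further groups. Of 20 RGS genes, which shorten G protein signals, 9 were higher and 1 lower at an unadjusted p under 0.05 in edgeR, led by RGS5 of pericytes at a log2 difference of 1.31 (DESeq2 adjusted p 0.0135). The count of higher genes was 4 without control A, 3 without ischemic A and 5 without ischemic B, and none was lower without control A, ischemic A or ischemic C. Of 21 phosphodiesterases 7 were higher and 1 lower (4 higher without control A, 3 without ischemic A or ischemic C, 2 lower without control B and 0 without control C, ischemic A or ischemic C), with PDE1A at 1.70 (DESeq2 adjusted p 0.00289). Of 29 cadherins and protocadherins 10 were higher (5 without ischemic C) and 2 lower (1 without control B, ischemic A or ischemic C), with PCDH18 at 1.55 (DESeq2 adjusted p 0.00282) against CDH17 above. Of 40 potassium channel genes 8 were higher and 2 lower (5 higher without ischemic A, 3 without ischemic C), with a median of 0.50. KCNK5 and KCNJ13 were the lower ones at -1.14 (DESeq2 adjusted p 0.00289) and -1.15 (DESeq2 adjusted p 0.00445) and KCNJ2 was higher at 1.29 (DESeq2 adjusted p 0.0169). KCNJ13 overlaps GIGYF2 on the other strand over 9788 bases. Of 58 genes named for protein phosphatases 0 were higher and 11 lower (6 without ischemic A), with PPP2R2C, a regulatory subunit, at -1.63 (DESeq2 adjusted p 0.00691), and their median of -0.21 turned to 0.04 without scaling factors. Proteasome genes had 0 of 46 higher and 13 lower, but the differences were small, PSMD4 had -0.91 (DESeq2 adjusted p 0.0586), and 1 was higher and 1 lower without scaling factors, 1 was lower without ischemic A, 6 without control C or ischemic B and 7 without ischemic C. Ribosomal protein genes had 0 of 75 higher and 3 lower, a count that was 17 without control A and 0 or 1 without each other library, and 4 were higher without ischemic B.

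The 12-library fit set the juvenile difference beside that of neonates, whose 6 libraries shared none with the juvenile comparison. No gene differed between the ages at an adjusted p under 0.05 in the interaction test of edgeR (1443 had an unadjusted p under 0.05), while the same test in DESeq2 called 92. Neonatal control D stood apart much as juvenile control C did, with 14.5% of its counted reads on genes (2045483 reads) and 39.9% aligned at more than 1 place, so the neonatal values here are given with and without it. The medians of 24 of the 46 lists were positive in juveniles and negative in neonates, 16 were negative at both ages, 3 were positive at both and 3 were negative in juveniles and positive in neonates. Fibroblast markers had a median of 0.98 in juveniles and -0.87 in neonates, fibrillar collagens 1.01 and -0.73, smooth muscle markers 0.95 and -0.66, and endothelial markers 0.85 and -0.79. Without neonatal control D these neonatal medians were -1.22, -1.005, -0.93 and -1.04. Enterocyte markers had -0.92 and -0.13, brush-border genes -0.89 and -0.15, and transport genes -0.82 and -0.05, with neonatal medians of -0.06, -0.17 and -0.16 without neonatal control D. The median of goblet cell markers turned from -0.15 to 0.16 in neonates without that library, that of immediate early genes from -0.15 to 0.04, that of cholesterol synthesis from 0.0053 to -0.17 and that of erythrocyte markers from 0.08 to -0.30. Single-gene differences at each age came from separate fits of 6 libraries, and the interaction estimate, neonatal minus juvenile, from the fit of all 12. PTGS2 had 2.30 in juveniles and -0.88 in neonates, with an interaction estimate of -3.12 (interaction adjusted p 0.00348 in DESeq2, 0.270 in edgeR), and ANGPTL4 had -1.86 and 0.21, with an interaction estimate of 2.13 (interaction adjusted p 0.00152 in DESeq2, 0.270 in edgeR). FOSB had 2.89 and 0.30, EGR1 1.73 and -0.01, and PCK1 -2.07 and 0.33. Unlike PTGS2 and ANGPTL4, FOSB, EGR1 and PCK1 did not pass an interaction adjusted p of 0.05 in DESeq2, nor in edgeR. Without neonatal control D the neonatal values were -0.73 for PTGS2, 0.17 for ANGPTL4, 1.37 for FOSB, 0.28 for EGR1 and 1.03 for PCK1. Without juvenile control C and neonatal control D edgeR called 0 genes in the interaction, with 1857 at an unadjusted p under 0.05, and DESeq2 called 310.

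**Figure D5:**
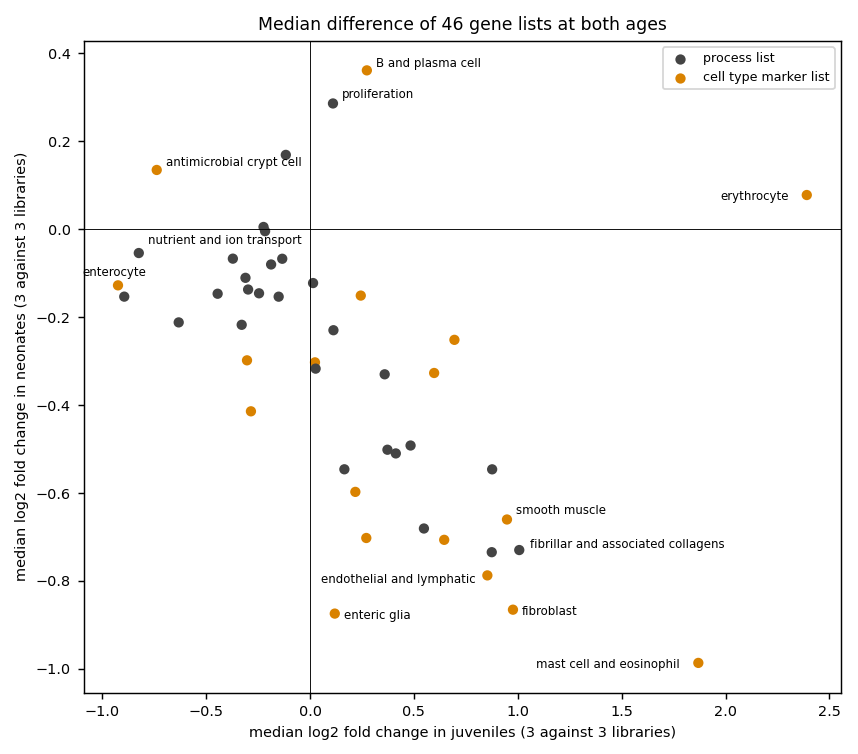
Median log2 fold change of ischemic against control mucosa in 46 gene lists, juveniles on the x axis and neonates on the y axis, each from 3 against 3 libraries. Gray points are lists of processes and orange points markers of cell types. Fibroblast, smooth muscle, endothelial and collagen lists lie at positive juvenile and negative neonatal values, enterocyte and transport lists lie low in juveniles and near 0 in neonates, and juvenile medians between -0.22 and 0 turned positive without scaling factors in 6 lists.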

How the data were processed

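The authors deposited 1 table of raw read counts per gene, made from stranded total RNA libraries that were aligned to the pig genome Sscrofa11.1, per the labels and the methods. The aligner, the counter and the strand setting of the counting are not given in the sources used here. Rows for reads on no gene or at more than 1 place were kept out of library sizes and tests. Every column was mapped to a sample (0 left unmapped). The deposited tables of the authors' own comparisons hold fold changes and p-values and were not used. Of 4727 genes listed by an Ensembl identifier, 124 were given a symbol from the reference table, 1870 genes have LOC names and 24 names are numbers.

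Genes above 1 CPM in 2 or more of the 12 samples entered edgeR 4.0.16 (R 4.3.3), whose quasi-likelihood test was the main one (TMM factors, 3 against 3, no block, common biological coefficient of variation 27.8%), with Benjamini-Hochberg adjustment over all genes tested. DESeq2 1.42.0 was the alternative test, and left 1943 genes without an adjusted p. All p-values are two-sided. The interaction of age and ischemia was fitted on all 12 samples. The floor was 3 counts per library, which covers counting error only. The scripts were tested on simulated data. Other alternatives were RLE factors, no scaling factors, other filters on low counts, a block for the replicate letter, 1 fit of all 12 samples and each library left out in turn. Counts of list members and of DESeq2 calls with libraries left out, and neonatal values without neonatal control D, were added after seeing the data.

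Members and lists were chosen with earlier results of these data known. The named genes were the 12 largest differences in each direction among symbol-named genes of at least 5 CPM with groups that did not overlap and a DESeq2 adjusted p under 0.05, the 10 lowest edgeR p, up to 4 members of each list and family by p, and a fixed set. HEPACAM, the most abundant marker of each list and overlapping genes were named after their values were seen. Of the fixed set, HMOX1, IL1B and S100B did not pass the CPM minimum, and HSPA1A and SLC2A1 were not found under those symbols, so they were not analysed here. Some genes that the rule names are not reported here. Overlapping genes and noncoding RNAs are named beside few genes only: POSTN, HGF, IGF1, COL5A2, ITGAM, WNT5A, SERPINH1, GATA2, HOXB5, HOXC6, SLC1A1 and PECAM1 also overlap noncoding RNAs. Reads that align at more than 1 place were not counted, so members of families with near copies such as HBB, GSTA2 and REG3G are uncertain. Loci and promoter windows were read from the RefSeq sequence and annotation of Sscrofa11.1 with samtools 1.23.1 and Python 3.11.15.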

Additional observations from a re-analysis of the deposited data

Results flagged for a closer look

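The juvenile and neonatal differences of 31 named genes were set apart by the interaction test of DESeq2 at an adjusted p under 0.05 (0.00152 to 0.0495), while edgeR gave 0.270 for all of them but POSTN at 0.293. Without juvenile control C and neonatal control D, 30 of the 31 stayed under 0.05 in DESeq2, and POSTN had 0.103. The genes were chosen for their juvenile difference, which itself widens the gap to neonates, and each value below is the interaction estimate, neonatal minus juvenile, of edgeR's fit of all 12 libraries, which can differ slightly from the gap between the separate fits of each age. On the matrix and its receptors the values were -3.04 for POSTN, -1.99 for FN1, -2.45 for FBN2, -2.62 for COL4A5, -2.08 for ITGB3, -1.60 for ITGA5, -3.11 for ITGA11, -2.26 for FERMT2 and -2.52 for MMP3. For signals and transcription factors they were -2.17 for NRG1, -2.97 for HGF, -2.64 for BMP5, -2.46 for WNT2B, -2.44 for DLL1, -3.43 for HOXA5 and -3.12 for PTGS2. For genes of vessels, muscle and fibroblasts they were -2.63 for LYVE1, -2.19 for KDR, -2.46 for FLT4, -1.58 for SMTN, -2.22 for TAGLN, -2.50 for ADAMDEC1, -1.93 for PDGFRB, -2.12 for GJA1, -2.90 for PDE1A, -1.56 for ADGRL2 and -1.71 for CACNA1H. All of these had positive estimates in juveniles and negative ones in neonates. Of the 31 neonatal estimates, 13 were at an unadjusted p under 0.05 in edgeR, and 31 had the same sign without neonatal control D.

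The values were positive for ANGPTL4 (2.13), COL17A1 (1.75) and GSDME (1.64), whose estimates were negative in juveniles and slightly positive in neonates, and for SRXN1 (2.23), whose estimates were negative at both ages.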

How the results depend on the processing

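The edgeR test called 0 genes at an adjusted p under 0.05 and also 0 with RLE factors or the filterByExpr filter. It called 208 without scaling factors, 219 with every gene of a count above 0, 1 in a fit of all 12 samples, and 332 at an adjusted p under 0.1. DESeq2 called 559. With each library left out edgeR called 0 to 183. DESeq2 called 360, 494 and 995 without controls A, B and C, and 70, 902 and 112 without ischemic A, B and C. The cause was not tested. Counts at an unadjusted p under 0.05 ranged from 1139 (without ischemic A in DESeq2) to 2923 (without scaling factors) and to 2873 with a library left out (without ischemic B in edgeR), with 1261 without ischemic A and 1591 without ischemic C in edgeR, and 1480 without ischemic C in DESeq2. Genes whose groups did not overlap numbered 4061 to 5898 with a library left out, where fewer samples make separation easier. DESeq2 called 92 genes in the interaction of age and ischemia where edgeR called 0, and 310 without juvenile control C and neonatal control D, an alternative added after seeing the data. Whether the replicate letters mark a shared pig is not given in the sources used here. Same-letter correlations of deviations were -0.07 for A, -0.06 for B and 0.02 for C. Those of different letters ranged from -0.02 (control A with ischemic C) to 0.08 (control B with ischemic A). Deviations within a group sum to 0, so these values are tied to each other and cannot decide whether a letter marks a pig. With a replicate block edgeR called 150 genes and DESeq2 319.

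Of 173 named genes, 169 kept their sign over up to 20 settings, and 31 of 46 lists did over 15 settings. The exceptions were ATF3, HIF1A, MKI67 and MUC2. ATF3 was 0.024 without scaling factors and 0.11 in DESeq2 without control B, and ranged from -0.38 to 0.12 in edgeR with a library left out. HIF1A was -0.00291 in DESeq2 without control C and -0.075 without ischemic C, and ranged from -0.082 to 0.26 in edgeR with a library left out. MKI67 was 0.14 without scaling factors, and in DESeq2 0.17 without control C and 0.11 without ischemic A, and ranged from -0.36 to 0.18 in edgeR with a library left out. MUC2 was 0.10 without scaling factors, and in DESeq2 0.62 without control C and 0.13 without ischemic A, and ranged from -0.59 to 0.64 in edgeR with a library left out. Depth limited what control C could show: 3 counts there equal 2.01 CPM before scaling, against 0.1695 CPM in control B.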

Other observations

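Adhesion G protein-coupled receptors, which sense contacts with matrix and neighboring cells, had 7 of 18 genes higher and 1 lower in juvenile ischemic mucosa at an unadjusted p under 0.05 in edgeR (12 higher without scaling factors, 2 lower without control A or ischemic B). The latrophilin ADGRL3 stood at 2.20, 3.77 and 5.37 CPM in controls and at 13.5, 6.79 and 14.8 CPM in ischemic libraries (log2 difference 1.77 ± 0.42, DESeq2 adjusted p 0.00899). ADGRF5, of endothelium, had a log2 difference of 1.202 ± 0.28 (DESeq2 adjusted p 0.0101) and ADGRL2 0.91 ± 0.22 (DESeq2 adjusted p 0.0200). ADGRG6 lay the other way, at 673, 417 and 256 CPM against 187, 233 and 202 CPM (log2 difference -1.12 ± 0.33, DESeq2 adjusted p 0.0246). Of 19 semaphorins, guidance signals for axons and vessels, 4 were higher and 1 lower (2 higher without ischemic A, 2 lower without control C and 5 without ischemic B), with SEMA3D at 1.19 ± 0.28 (DESeq2 adjusted p 0.0131) and SEMA6A at -0.91 ± 0.25 (DESeq2 adjusted p 0.0204). The muscle LIM proteins FHL1 and PDLIM3 had log2 differences of 1.18 ± 0.28 (DESeq2 adjusted p 0.0117) and 1.60 ± 0.45 (DESeq2 adjusted p 0.0327), where PDLIM3 overlaps C15H4orf47 on the other strand over 30481 bases, and the calcium channel gene CACNA1H 0.99 ± 0.25 (DESeq2 adjusted p 0.0343).

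Of 4 Y-linked genes in the table (DDX3Y, EIF1AY, KDM5D and ZFY), none had more than 3 counts in any juvenile library, while the highest neonatal library had 4190 counts of DDX3Y. Whether the ages differed as groups in these transcripts cannot be told from the highest neonatal library alone. Their part in the comparison of ages was not tested.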
